A study of Rattus norvegicus with 6 samples.

Results

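ASCRPR004116, ASCRPR007396, ASCRPR009195 and ASCRPR007881 are 4 circular RNAs (circRNAs) of the rat lung, out of 14145 on the array, that stood well above background on all 3 arrays of saline-treated rats and on none of the 3 arrays of monocrotaline-treated rats. They were selected by array ID for that pattern and because, among the saline lungs, each was lowest in replicate 3. Well above background is the extraction software's mark for a spot clearly brighter than its surround. The same marks and signals of all 6 arrays chose the members, so their differences between groups and their low value in saline 3 are given as descriptions, with no test. They are not the only circRNAs that meet the rule. Of 14134 circRNAs with a value on every array, 257 (1.82%) were well above background on 3 saline and 0 MCT arrays, 148 of these (57.6%) were lowest in saline 3, and the members are the 4 with the largest mean difference among the 148.

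The lungs came from male rats with an age label of 6 weeks, which does not say whether that was the age at dosing or at sampling. A single injection into the peritoneum held either monocrotaline (MCT) at 60 mg per kg or, in the controls, the same volume of saline. Lungs were taken 28 days later and perfused with PBS. MCT is a pyrrolizidine alkaloid that the liver turns into metabolites toxic to the pulmonary endothelium, and the treated rat serves as a model of pulmonary arterial hypertension. Each group had 3 lung samples, called lungs below, each on 1 array. The labels name no pooling, litter or strain, and they number the replicates without saying that each came from a separate animal, so that the spread between arrays could be technical in part.

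A circRNA forms when the spliceosome joins a downstream splice donor to an upstream acceptor, a reaction called back-splicing. The product has no free end and resists exonucleases, which makes it long-lived in cells and lets RNase R, an enzyme that digests linear RNA, enrich it before labelling. The level of a circle therefore reflects how often it is made and how long it lasts, and it need not follow the linear transcript of the same gene. In bulk tissue, fewer cells that hold a circle and less of it per cell cannot be told apart. The files used here do not pair these 4 IDs with host genes or sequences, so no host gene, locus or sequence is given.

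Array brightness bears on every value below. The 75th percentile of the processed signal lay between 75.6 and 94.5 fluorescence units on the saline arrays and at 95.2 on MCT 2, but at 41.4 on MCT 1 and 32.3 on MCT 3. MCT 1 shared a slide with the 3 saline arrays, and MCT 2 and MCT 3 lay on another. Across 11272 circRNAs, saline 3 correlated better with MCT 2 (Pearson's r = 0.96) than with saline 1 or saline 2 (0.93 each), and these are correlations across circRNAs, which are not independent replicates. None of the 18 marker genes listed for lung, blood, immune and smooth muscle cells had a named probe among the linear transcripts, so the tissue label could not be checked here.

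Each of the 4 circRNAs was measured by 1 spot per array, and the software gave each spot signal an error. Of their 12 MCT signals, 4 were not significant, and there the processed signal is a floor value above the background-subtracted one. These are ASCRPR009195 on MCT 1, ASCRPR007396 on MCT 1 and MCT 3, and ASCRPR007881 on MCT 3. On MCT 1 the processed signal of ASCRPR009195 was 1.45 units and its background-subtracted signal -2.20 units. ASCRPR009195 had the largest difference of the 4. Its processed signal was 78.8 ± 8.03 (spot error) units in saline 1, 90.3 ± 9.11 in saline 2 and 25.7 ± 2.83 in saline 3, against 1.45, 8.32 and 4.44 units on MCT 1 to 3. The highest MCT signal thus lay below the lowest saline signal, and saline 3 lay far below the other saline lungs.

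ASCRPR007881 had the same shape within the saline group. Its signal was 43.3 ± 4.597 (spot error) units in saline 1, 46.3 ± 4.79 in saline 2 and 15.9 ± 2.003 in saline 3, and 3.08, 8.63 and 1.82 units on MCT 1 to 3. Saline 3 again lay far below the other saline lungs.

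ASCRPR007396 had signals of 24.8 ± 2.92 (spot error), 29.6 ± 3.22 and 13.5 ± 1.804 units in saline 1 to 3 and of 1.89, 3.23 and 1.76 units on MCT 1 to 3. Saline 3 was again the lowest saline lung. The dimmest signal that was well above background on that array was 5.57 units, and the rule placed this circRNA above it.

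ASCRPR004116 was the most even of the 4 in the saline lungs. It gave 40.5 ± 4.33 (spot error), 39.0 ± 4.09 and 31.0 ± 3.31 units in saline 1 to 3, and 2.78, 8.10 and 2.70 units on MCT 1 to 3. Saline 3 was again lowest, by a smaller step.

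**Figure D1:**
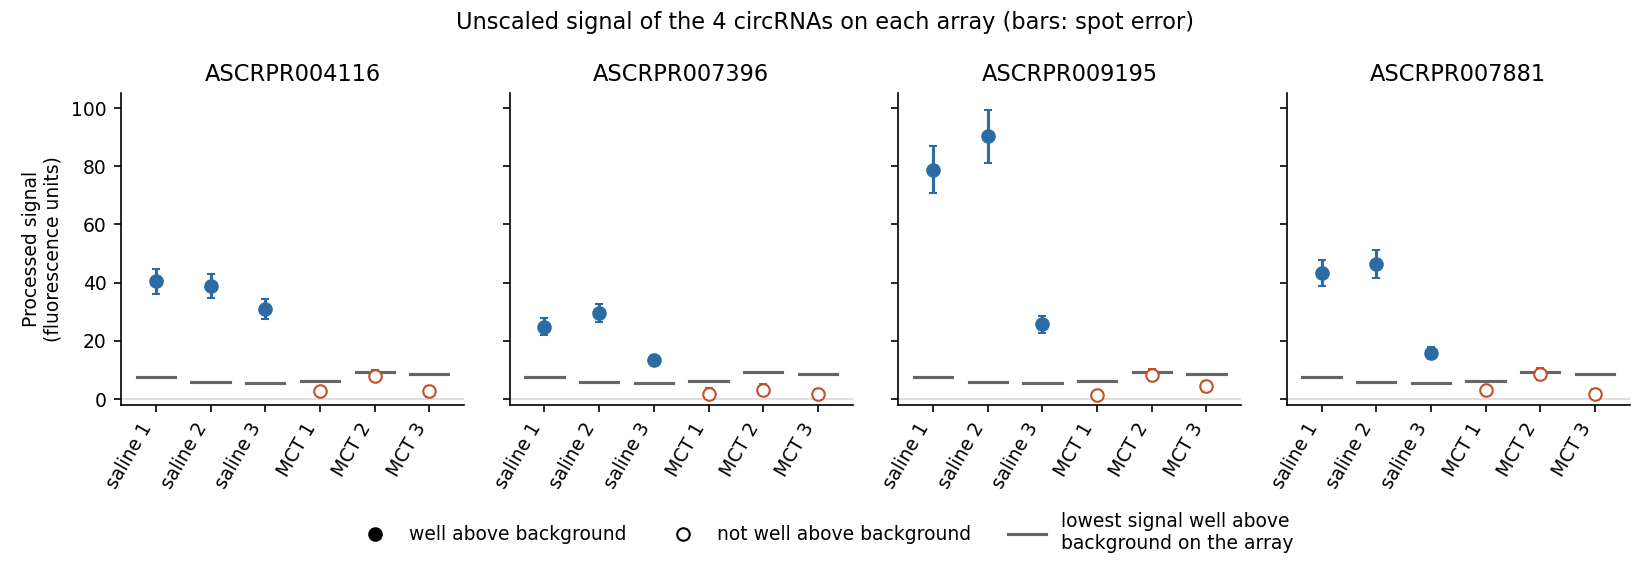
Processed signal in fluorescence units (linear axis) of each circRNA on each array, with the software's spot error as bars, filled points where the spot was well above background, and a grey line at the dimmest signal well above background on that array. Saline 3 is the lowest saline array in every panel, and all MCT points lie under their array's line.

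To compare arrays, each array's 75th percentile was subtracted from its log2 signals, so that 0 is that percentile. Floor values enter the MCT means and SDs of ASCRPR009195, ASCRPR007396 and ASCRPR007881. On this scale ASCRPR009195 had a saline mean of -0.62 ± 1.11 (SD, n = 3) and an MCT mean of -3.74 ± 1.003 (SD, n = 3). ASCRPR007396 had a saline mean of -2.03 ± 0.73 (SD, n = 3), with MCT lungs at -4.51 ± 0.35 (SD, n = 3). The saline SDs of both, like the 0.98 of ASCRPR007881, exceeded the median of 0.33 over 11272 circRNAs.

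ASCRPR007881 had a saline mean of -1.46 ± 0.98 (SD, n = 3) and an MCT mean of -3.79 ± 0.35 (SD, n = 3). Those of ASCRPR004116 were -1.26 ± 0.33 (SD, n = 3) and -3.68 ± 0.19 (SD, n = 3), the smallest spread of the 4 in both groups. In all 4 circRNAs the 3 MCT values lay below the 3 saline values, as in 7.08% of the 11272 circRNAs with all values. The rule used this contrast, so nothing is read from that count.

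The fitted MCT minus saline differences were -3.11 ± 0.62 (SE) for ASCRPR009195, -2.48 ± 0.43 (SE) for ASCRPR007396, -2.42 ± 0.35 (SE) for ASCRPR004116 and -2.32 ± 0.49 (SE) for ASCRPR007881. Their median was -2.45, against -0.04 over the 11272 circRNAs, and the next circRNA under the rule had -2.32 as well. In the limma fit over 11279 circRNAs, 2 (0.0177%) were called lower at an adjusted p below 0.05. The rule used this contrast, so no p is given for the 4. Without MCT 2 the call count was 12 in place of 2, and without saline 3 it was 1. Within slide 1 the only MCT array is MCT 1, and the differences from it were -4.21 for ASCRPR009195, -2.64 for ASCRPR004116, -2.42 for ASCRPR007396 and -2.29 for ASCRPR007881. A fit with slide as a block gives the same values, because it too takes the contrast from MCT 1 alone. On MCT 1 the signals of ASCRPR009195 and ASCRPR007396 are floor values. The part of the slide and of array brightness in these differences was not tested.

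**Figure D2:**
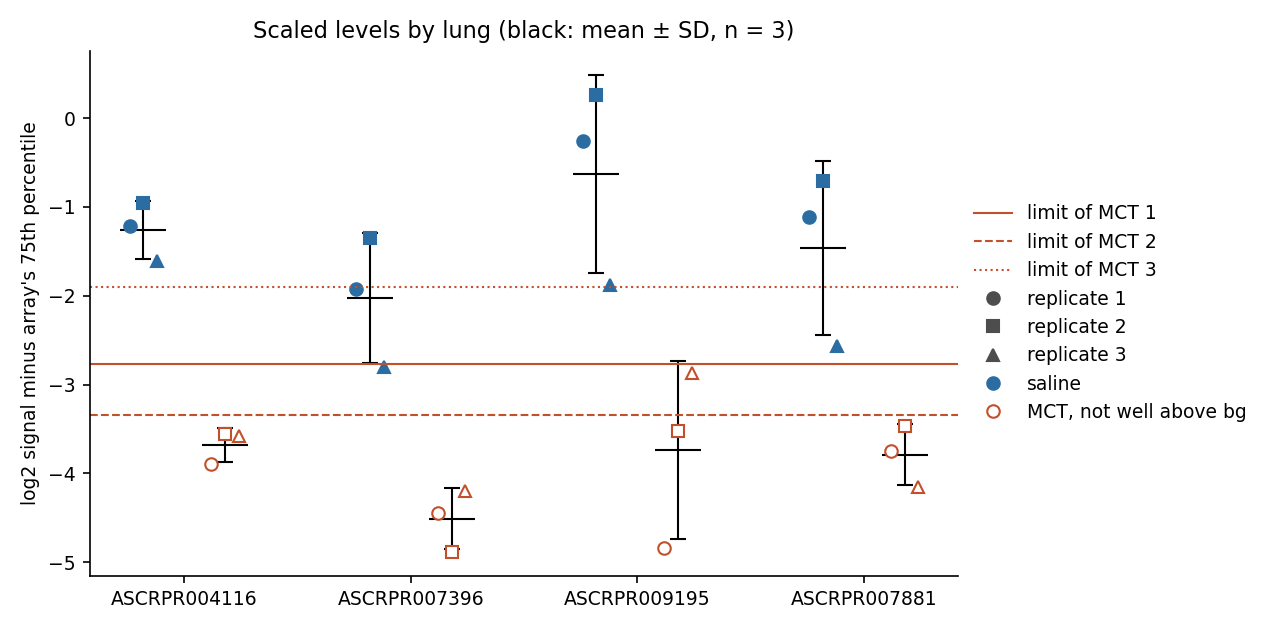
Scaled log2 signal of each circRNA (0 is the array's 75th percentile), with a symbol per replicate, group mean ± SD in black (n = 3) and horizontal lines at the dimmest scaled signal well above background on MCT 1, 2 and 3. The saline 3 triangle of ASCRPR007396 lies below the lines of MCT 1 and MCT 3, and that of ASCRPR004116 lies above all 3 lines.

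Because no MCT value was well above background, the MCT means give no reliable fold, and only a bound on the difference can be stated. For it the saline mean was set against the mean of the dimmest scaled signals well above background on the MCT arrays, -2.67, since no MCT value of the 4 exceeded its array's limit. By this bound the saline mean exceeded the MCT level by at least 4.12-fold for ASCRPR009195, 2.65-fold for ASCRPR004116, 2.30-fold for ASCRPR007881 and 1.56-fold for ASCRPR007396. The bound takes no account of spot error or of the spread between saline lungs. It is therefore no strict lower bound and does not hold for each saline lung. A bound of 2-fold or more was reached by 3 of the 4, and by 7 of the 257 circRNAs (2.72%) well above background only in saline. The 7 include these 3. The 4 were chosen by the same values, as those with the largest mean difference, so nothing is read from these counts.

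Saline 3 lowers these bounds. Without it they were at least 6.36-fold for ASCRPR009195, 3.38-fold for ASCRPR007881, 2.99-fold for ASCRPR004116 and 2.04-fold for ASCRPR007396. With saline 3 as the only saline lung they were at least 2.08-fold for ASCRPR004116, 1.73-fold for ASCRPR009195 and 1.07-fold for ASCRPR007881, and for ASCRPR007396 no bound above 1 was left.

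The limits of the dim arrays set what could be seen there. At its saline 3 level, ASCRPR007396 would give 5.92 units on MCT 1 and 4.62 on MCT 3, where the dimmest signals well above background were 6.10 and 8.67 units. Only MCT 2, where that level would give 13.6 units against a limit of 9.40, could have shown it. ASCRPR007881 at its saline 3 level would pass the limit on MCT 1 and MCT 2 but not on MCT 3 (5.44 units). ASCRPR009195 would just pass on MCT 3, with 8.79 units, and ASCRPR004116 would pass on all 3 arrays. Of the 257 circRNAs seen only in saline, 253 (98.4%) had a saline 3 level under the MCT 3 limit, and 115 (44.7%) had one under the MCT 2 limit, which was true of none of the 4.

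The most direct pair of arrays is saline 3 and MCT 2, whose 75th percentiles were 94.5 and 95.2 units. No MCT 2 spot of the 4 was well above background, so the unscaled saline 3 signal was set against the dimmest signal that was, 9.40 units. Saline 3 was brighter than this limit by 3.30-fold for ASCRPR004116, 2.74-fold for ASCRPR009195, 1.69-fold for ASCRPR007881 and 1.44-fold for ASCRPR007396. These folds leave out spot error and are no strict lower bounds. The MCT 2 signals of ASCRPR004116, ASCRPR009195 and ASCRPR007881 were 8.10 ± 2.05, 8.32 ± 2.05 and 8.63 ± 2.07 (spot error) units, within 1 error of the limit. Each fold is a single lung against a limit from a single array on another slide, with no replicate check.

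Signal of the 4 circRNAs was low on the MCT arrays but not at zero throughout, so they are not called lost here. The software also marks signals that are positive and significant, a lower bar, and 8 of their 12 MCT values passed it: all 3 of ASCRPR004116, 2 each of ASCRPR009195 (MCT 2 and MCT 3) and ASCRPR007881 (MCT 1 and MCT 2), and 1 of ASCRPR007396 (MCT 2). On MCT 2 all 4 passed this mark. At least 1 such MCT value was found for 99.6% of the 257 circRNAs seen only in saline, and all 3 for 59.1%, so passing it was common in that set.

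The 76 or 77 negative control spots of each array gave the same 8 of 12 when background-subtracted signals were compared. The background-subtracted signal of ASCRPR004116 was 3.28, 8.10 and 2.67 units on MCT 1 to 3, above the brightest negative controls (1.16, 2.24 and 2.65 units) although on MCT 3 by less than its spot error of 1.82 units. Without subtraction its spot on MCT 3, at 29 units, lay within the range of the negative controls, 19 to 30 units. For ASCRPR009195 on MCT 1 the value was -2.20 units, and 49 of 77 negative controls were at least as bright. For ASCRPR007396, 11 of 77 were at least as bright on MCT 1 and 4 of 77 on MCT 3, and for ASCRPR007881 it was 5 of 77 on MCT 3. In the saline lungs all 12 values exceeded every negative control, the lowest being 13.7 units for ASCRPR007396 in saline 3 against a brightest control of 1.33 units. The rule required these spots to be well above background, so nothing is read from this.

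Among the saline lungs the order was saline 2, then saline 1, then saline 3 for all 4 on the scaled values. The rule fixed saline 3 as lowest, so only the order of saline 2 and saline 1 was free. Of the 148 circRNAs that meet the rule, 83 had this order, as had 2088 of the 3955 tested circRNAs lowest in saline 3. Without that condition it was found in 18.5% of 11272 circRNAs and in 32.3% of the 257 seen only in saline. Without scaling, ASCRPR004116 was slightly higher in saline 1 than in saline 2, so that the order of these lungs rests on the scaling for it. The step from saline 1 to saline 2 was small, 0.26 to 0.57 on the log2 scale (median 0.46, against 0.00 over the 11272).

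The step to saline 3 differed among the 4. Saline 3 lay below the mean of saline 1 and 2 by a log2 difference of -1.88 for ASCRPR009195, which is 3.68-fold. The same difference was -1.66 for ASCRPR007881 (3.16-fold), -1.17 for ASCRPR007396 (2.25-fold) and -0.52 for ASCRPR004116 (1.44-fold). Among the 11272 circRNAs, 1.12% were at least as low in saline 3 as ASCRPR009195, 2.32% as ASCRPR007881, 6.52% as ASCRPR007396 and 18.9% as ASCRPR004116. A difference of 2-fold or more was thus present in 3 of the 4, in 8.52% of the 11272 and in 14.8% of the 257. The rule required the 4 to be lowest in saline 3, and these wider sets were not so chosen. The shares therefore do not show how unusual the steps of the 4 are.

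Saline 1 and saline 3 were almost equally bright (75th percentiles of 93.9 and 94.5 units), so their raw signals can be set side by side. Saline 1 exceeded saline 3 by 3.07-fold for ASCRPR009195, 2.72-fold for ASCRPR007881, 1.84-fold for ASCRPR007396 and 1.31-fold for ASCRPR004116. Divided by the spot errors of both signals combined, these log2 steps were 7.47, 6.09, 3.42 and 1.77 in that order. The step of ASCRPR004116 was thus the least clear of spot error. For scale, linear probes printed as several spots, with signals of 10 to 100 units, had a median SD over spots of 0.09, 0.12 and 0.11 on the log2 scale on saline arrays 1 to 3, with a largest SD of 0.25. That spread, like the spot error, lies within an array and is no replicate error between lungs.

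**Figure D3:**
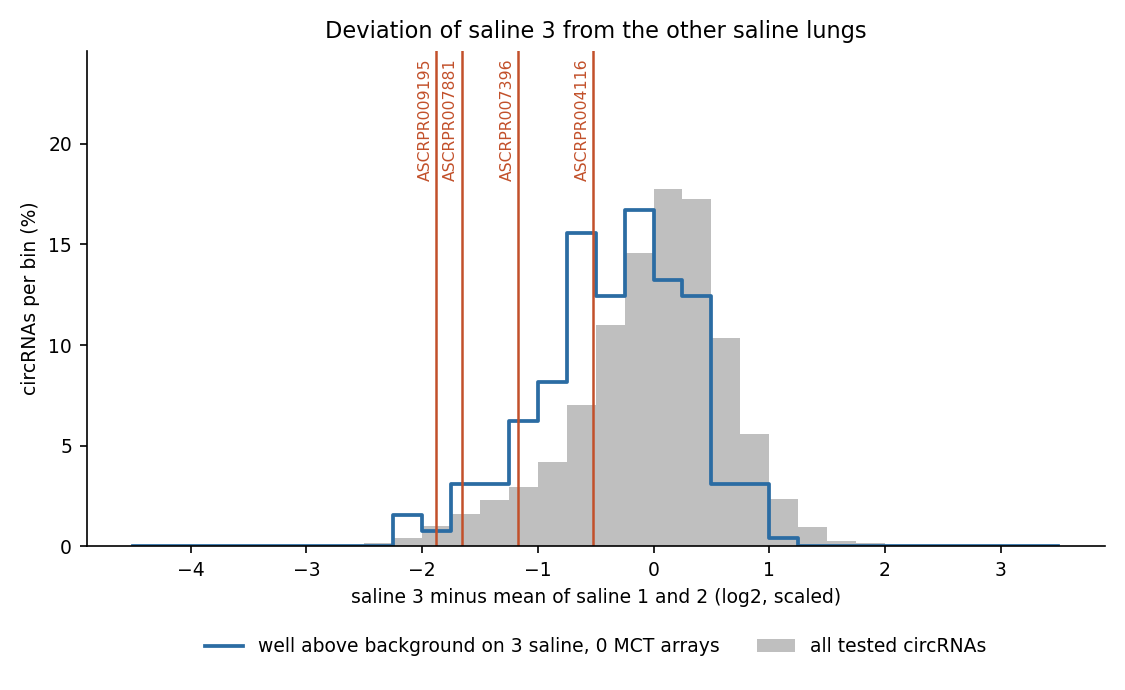
Distribution of the scaled log2 difference of saline 3 from the mean of saline 1 and 2, in bins of 0.25, as a percentage of 11272 circRNAs (grey) and of the 257 seen only in saline (blue line), with the 4 circRNAs as red lines. ASCRPR009195 and ASCRPR007881 lie in the lower tail, and ASCRPR004116 at -0.52 lies within the bulk of both.

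A minimum in saline 3 was not particular to these circRNAs. Of the 11272, 35.1% were lowest in saline 3, 33.3% in saline 2 and 31.6% in saline 1. Of the 257 seen only in saline, 57.6% were lowest in saline 3, 17.5% in saline 2 and 24.9% in saline 1, with a median saline 3 difference of -0.32 against 0.07 over the 11272. Only 1 of the 257 (0.389%) was 2-fold or more higher in saline 3 than in the other saline lungs, and 38 (14.8%) were as much lower. The dimmest scaled signals well above background were -3.62, -3.71 and -4.08 on saline 1 to 3. A circRNA could thus enter the 257 at a lower level in saline 3. The part of this in these shares was not tested.

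Among the saline arrays, saline 3 had 84.5% of circRNAs well above background, and each of the others had 80.3%. On the grid of 192 rows and 82 columns, ASCRPR007881 lay at row 23 and column 28, ASCRPR004116 at row 29 and column 48, ASCRPR009195 at row 37 and column 65, and ASCRPR007396 at row 118 and column 65. Thus 3 of the 4 spots lay in nearby rows. The local background around all 4 was 15.5 to 18 units on the saline arrays and 14.5 to 23 on the MCT arrays. No such spot was marked as non-uniform or as an outlier. Among 10 probes of 9 linear reference transcripts, 8 had lower values in saline 3 than in the mean of the other saline lungs, from -0.60 for the lysosomal beta-glucuronidase Gusb to 0.36 for 1 of the 2 probes of Ldha, a lactate dehydrogenase subunit (median -0.25). The steps of 3 of the 4 circRNAs were larger than any of these, but the 4 were chosen as lowest in saline 3 and the reference probes were not. The part of these transcripts or of the array in the result was not tested.

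The profiles of the 4 over the 6 arrays were alike, with Pearson's r between 0.91 and 0.97 for the 6 pairs. The choice of members fixes most of this, since all are high in saline, lowest there in saline 3 and low in MCT. On the MCT arrays, which the rule did not order, they had no common order on the scaled values, while without scaling all 4 were highest on MCT 2. The highest scaled MCT value was on MCT 2 for ASCRPR004116 and ASCRPR007881 and on MCT 3 for ASCRPR007396 and ASCRPR009195, all under the array limits. That of ASCRPR007396 is a floor value, and ASCRPR004116 had -3.56 on MCT 2 and -3.58 on MCT 3. So little can be read from the order on these arrays.

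Of 11268 other circRNAs compared, 342 had an r of at least 0.9 with the mean profile of the 4 over the 6 arrays. The closest was ASCRPR014045 (r = 0.997), with 12.5, 11.96 and 9.88 units in saline 1 to 3 and 2.31, 5.57 and 1.98 units on MCT 1 to 3. It too was well above background only in saline, with a saline 3 difference of -0.47. The next was ASCRPR006932 (r = 0.996), which was well above background on all 6 arrays, with 72.9, 60.4 and 62.5 units in saline 1 to 3 and 20.8, 51.0 and 16.9 units on MCT 1 to 3. Its scaled difference between the groups was -0.52 and that of saline 3 from the other saline lungs -0.25, so a close r over 6 arrays says nothing of size. Both had smaller steps than any of the 4.

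Among 21 linear probes with a gene symbol, the closest were a probe of Ldha (r = 0.94) and that of Pgk1 (r = 0.91), a glycolytic kinase, over the same 6 arrays. The scaled MCT minus saline difference was -0.72 for this Ldha probe and -0.65 for Pgk1, and saline 3 differed from the other saline lungs by -0.25 and -0.24. The other Ldha probe differed by 0.36 in saline 3, so the probes of this gene disagree there. These signals are what RNase R left of linear RNA.

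The sizes of these differences were not the same in every processing setting. In the authors' deposited table of log2 values, ASCRPR009195 stood at 6.88, 7.30 and 5.90 in saline 1 to 3 and at 5.03, 5.24 and 5.62 on MCT 1 to 3. ASCRPR007881 stood there at 6.23, 6.61 and 5.59 in saline and at 5.33, 5.18 and 5.09 on MCT arrays. All 4 were lowest within saline in replicate 3, and none overlapped between the groups, although ASCRPR007396 had 5.380 in saline 3 and 5.378 on MCT 3. The MCT minus saline differences, however, were -1.40 for ASCRPR009195, -0.94 for ASCRPR007881, -0.86 for ASCRPR004116 and -0.64 for ASCRPR007396.

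With normexp correction of the median spot brightness and quantile normalization they shrank further, to -0.76, -0.46, -0.42 and -0.29 in the same order. Under it ASCRPR007396 overlapped, with 6.00 in saline 3 and 6.0035 on MCT 3. The direction was the same in every setting tried, which the choice of the members fixed in part.

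**Figure D4:**
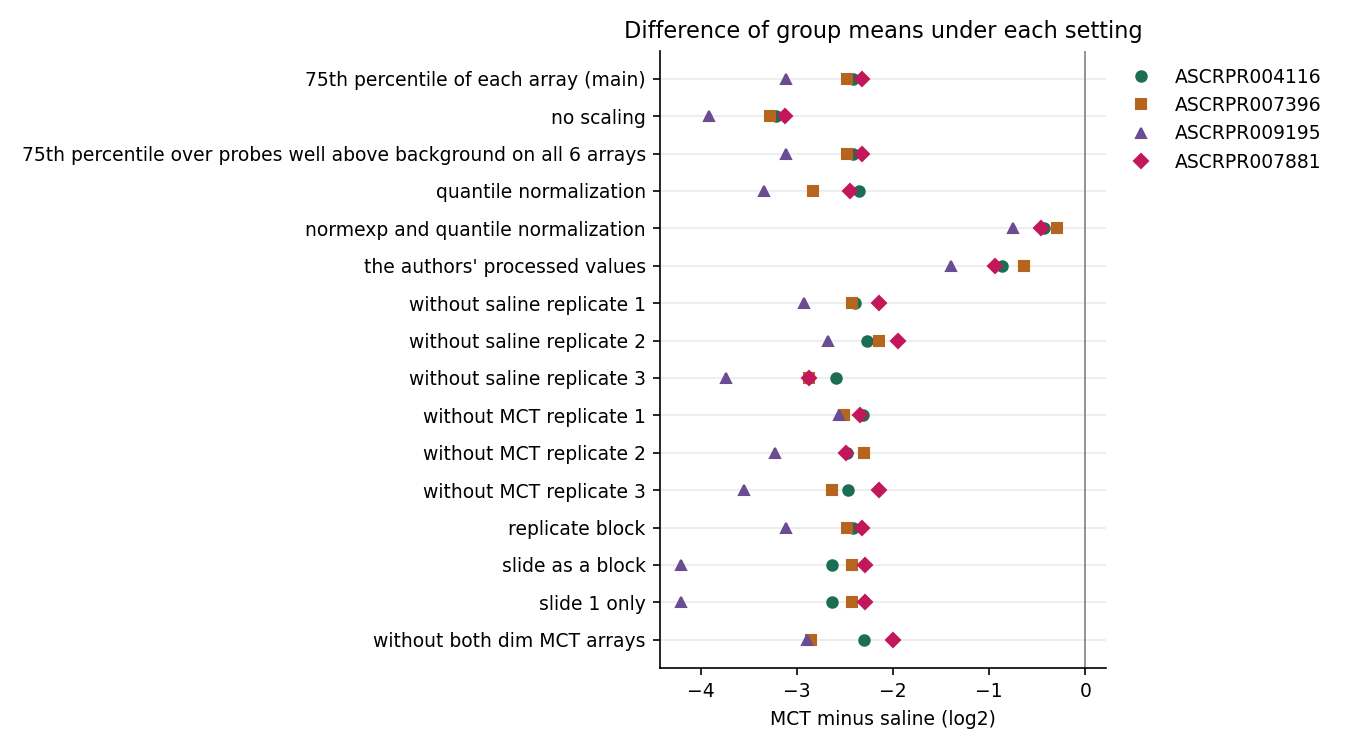
MCT minus saline difference in log2 units for each circRNA (symbols) under each setting (lines of the vertical axis), with 0 as a grey line. All points lie below 0, and those of the authors' values and of normexp correction lie nearest to it, at -1.40 to -0.29.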

How the data were processed

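The 6 scanner files hold deposited intensity values, which per the file headers were extracted with Agilent Feature Extraction 11.0.1.1: a background-subtracted processed signal with its error, median spot and surround brightness, and marks per spot. Per the labels' protocols, RNA was digested with RNase R and random-primed into Cy3 cRNA for 1-colour Arraystar arrays. The authors' processed table holds log2 values, whose background treatment and normalization are not given in the sources used here; limma is named without a step in the submitters' processing notes.

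Control spots were left out, as were the 25 to 61 spots per array with a mark for non-uniformity or as an outlier; spots of 1 probe were averaged on the log2 scale, and each array's 75th percentile over 14227 probes was subtracted. The 11279 circRNAs that were well above background on 3 or more arrays were fitted with limma 3.58.1 in R 4.3.3 (lmFit, eBayes, all 6 arrays, no covariate, Benjamini-Hochberg adjustment), and 11272 of these had a value on every array. The fit was tested on simulated data. No spot was saturated, and 3 arrays per group limit the precision.

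Members and lists were chosen with earlier results of these data known. Besides the 4 members, the rule named the 2 circRNAs and 2 named linear probes with the highest r to their mean profile, and reference transcripts. Linear probes (62, of which 39 received a symbol) were matched without versions to RefSeq accessions of GRCr8. Alternatives were other scalings, normexp with an offset of 50, the authors' values, other filters and marks, slide and replicate blocks, and each array left out.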

Additional observations from a re-analysis of the deposited data

How the results depend on the processing

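Of 60 recomputed differences between the groups, 28 saline 3 differences and 44 bounds, none turned direction. For the settings that left out an array this was fixed for both kinds of difference. The 3 MCT values of each circRNA lay below its 3 saline values, and saline 3 was lowest by the rule. Without scaling the differences were -3.22 for ASCRPR004116, -3.28 for ASCRPR007396 and -3.12 for ASCRPR007881, and the bounds 4.62, 2.71, 7.17 and 4.01-fold for ASCRPR004116, ASCRPR007396, ASCRPR009195 and ASCRPR007881. The authors' values gave differences of -0.86, -0.64, -1.40 and -0.94 for ASCRPR004116, ASCRPR007396, ASCRPR009195 and ASCRPR007881. With normexp and quantile normalization the differences were -0.42, -0.29, -0.76 and -0.46 in that order and the saline 3 differences -0.18, -0.30, -0.72 and -0.44. The bound calculation, added for these values after seeing the data, gave 1.82, 1.43, 2.43 and 1.85-fold in that order for the authors' values and 1.34, 1.18, 1.63 and 1.35-fold with normexp. These are not bounds like the others: under both settings the MCT signal itself was above the dimmest signal well above background on 3, 2, 2 and 1 of the 3 MCT arrays, and for ASCRPR004116 the value is the measured fold. Slide as a block and slide 1 only gave -4.21 for ASCRPR009195, from MCT 1 alone, where its signal is a floor value.

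With 1 array left out in turn, the differences ran from -2.59 to -2.27 for ASCRPR004116, -2.87 to -2.15 for ASCRPR007396, -3.74 to -2.57 for ASCRPR009195 and -2.88 to -1.95 for ASCRPR007881. The bounds ran from 2.10 to 3.46-fold for ASCRPR004116, 1.23 to 2.04-fold for ASCRPR007396, 3.04 to 6.36-fold for ASCRPR009195 and 1.77 to 3.38-fold for ASCRPR007881.

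By the positive and significant mark, 99 circRNAs in place of 257 were seen only in saline, 42 in place of 148 of them lowest in saline 3. The count without overlap, 798, was 1545 without scaling and 403 when all 6 arrays had to be well above background. The limma count of 2 circRNAs called lower was 1 without scaling, 0 in the authors' values (695 at an unadjusted p below 0.05) and 1 to 12 with 1 array left out. Slide as a block and slide 1 only take the contrast from MCT 1 alone, so no count is given for them. The replicate block left the differences as they were and gave 12 calls over all circRNAs. Same-numbered arrays had deviations with correlations of -0.23, -0.36 and -0.45. With 3 arrays per group that differ in brightness and slide, these cannot settle whether the replicate numbers pair the samples. Signal over background limits all 12 MCT values. The cause of the shifts was not tested.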
